A study of Mus musculus with 8 samples.

Results

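The genes of skeletal muscle contraction were followed in back skin that carried a lymphoma. The set held 39 genes, chosen by symbol from 55247 rows of a table of read counts per gene. They encode the filament proteins of the sarcomere, the proteins that release and retrieve calcium, and 4 energy and oxygen proteins of muscle fibers. Each symbol was found in 1 row, and 38 of the 39 genes had a count in at least 1 mouse. Of these genes, 13 are typical of fast fibers, 5 of slow fibers and 2 are myosins of developing muscle, while the other 19 were assigned to neither fiber type. Each of the 8 libraries came from 1 wild-type female C57BL/6J mouse of 8 weeks (C57BL/6JJmsSlc in the study's methods). All mice carried a tumor of the mouse T-cell lymphoma line EL4, grown from 100 μL of cell suspension placed under the back skin on Day 0. Bexarotene, which binds and activates retinoid X receptors, was injected into the peritoneum of 4 mice on Day 14 at 0.1 mg, and the other 4 mice were given its vehicle, dimethyl sulfoxide in corn oil. Skin with tumor was taken on Day 16 and sequenced in bulk after ribosomal RNA had been depleted.

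A sarcomere is the repeating unit of a striated muscle fiber, in which thick filaments of myosin pull on thin filaments of actin. Calcium released from the sarcoplasmic reticulum binds troponin on the thin filament, tropomyosin moves, and myosin can attach. Fast and slow fibers use different genes for myosin, troponin and the calcium pump, and the fast fibers are divided further by their myosin, with *Myh2* in type IIa, *Myh1* in type IIx and *Myh4* in type IIb. Mouse skin carries its own thin sheet of skeletal muscle, the panniculus carnosus, under the dermis and fat, and this sheet is made mainly of fast fibers. A full-thickness piece of mouse skin can therefore contain muscle fibers, in an amount that depends on the depth of the excision. In bulk RNA, fewer muscle fibers and less muscle RNA per fiber cannot be told apart.

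Total counts per library ran from 16196852 to 24020342 with vehicle and from 8518428 to 18340980 with bexarotene. Levels are given as CPM, a gene's counts per 1000000 counts of its library after TMM scaling (by a trimmed mean of gene-wise ratios between libraries, with factors from 0.278 in Bexarotene 2 and 0.544 in Bexarotene 1 to 2.18 in Vehicle 1), and as CPM per kilobase of gene length wherever 2 genes are compared. Reads of the 39 genes numbered 2721 to 6015 with vehicle and 9942, 3581, 497 and 88 in Bexarotene 3, 4, 1 and 2. Per 1000000 total counts, without the factors, these were 130 to 260 reads with vehicle and 542, 211, 42.6 and 10.3 reads in the same order of mice. Bexarotene 1 and 2 thus had the fewest reads of muscle genes on either basis, and 24 of the 39 genes had no count in Bexarotene 2. A count of 3, taken as the floor, was 0.0596 CPM in Vehicle 1 and 1.27 CPM in Bexarotene 2. In that mouse *Tnnt1*, *Tnni1*, *Tpm1*, *Ryr1* and *Des* held 55 of the 88 reads (62.5%), against 10.7% to 29.8% in the other mice. These genes were picked for their reads in Bexarotene 2, so a higher share there follows from the choice. The gene with the most reads in that mouse was *Ttn*, with 19 of 88 (21.6%), against 33.6% to 42.5% in the other mice. *Tpm1* and *Des* are also made by smooth muscle.

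The summed level of the 39 genes was 119, 215, 170 and 91.1 CPM for Vehicle 1 to 4, against 78.4, 37.2, 338 and 169 CPM for Bexarotene 1 to 4. The groups overlapped, and both the lowest and the highest mouse had received bexarotene. Bexarotene 3 was the highest mouse for 23 of the 38 genes with a count. Vehicle 3 was highest for 5 genes, among them *Myh1*, *Myh2* and *Mb*. Per kilobase and averaged over the 8 mice, the most abundant genes were *Atp2a1* at 2.46, *Tnnt1* at 2.37, *Des* at 2.01, *Tnnt3* at 1.91 and *Tpm1* at 1.35. *Atp2a1* encodes the calcium pump of fast fibers, and *Tnnt3* the fast form of troponin T. *Ttn*, which held 11793 of the reads of the set, stood at 0.50 CPM per kilobase because its summed exons are 117756 bases long.

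**Figure D1:**
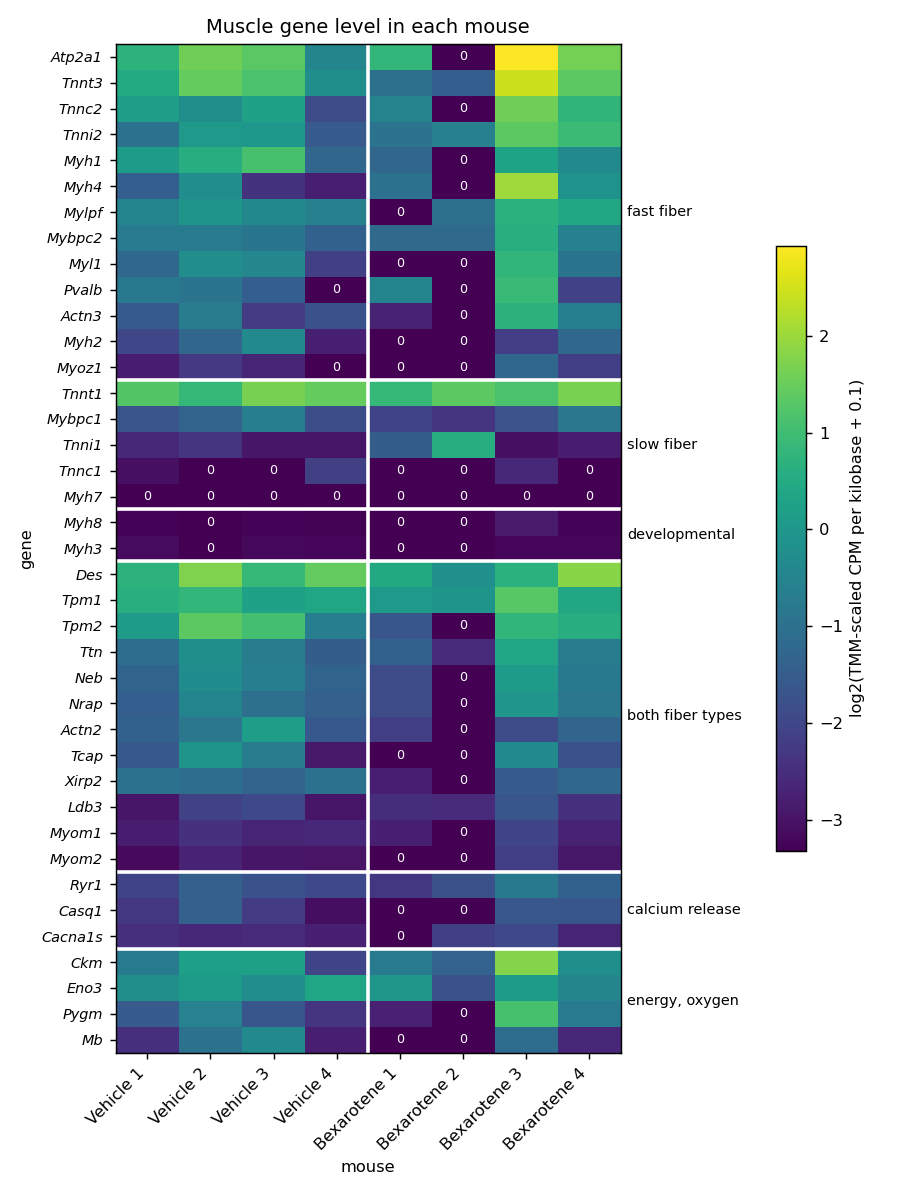
Level of each of the 39 genes in each of the 8 mice as log2 of TMM-scaled CPM per kilobase plus 0.1, with genes in rows by role and mice in columns; a written 0 marks a gene with no count. Bexarotene 3 is the brightest column for most fast-fiber genes, Bexarotene 2 has no count for 24 genes, and *Tnnt1* is similar in every mouse on this scale.

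The adult fast myosin heavy chains, the motor proteins of the thick filament, lie side by side on chromosome 11 on the plus strand. In GRCm39 *Myh2* spans chr11:67061853-67088343, *Myh1* chr11:67090878-67115401 and *Myh4* chr11:67128855-67151272. Their coding sequences are near-identical in long stretches, so that the split of reads among them is uncertain where a read matches more than 1. Their promoters are shown because the results below turn on the balance of these genes. The windows run from 250 bases before to 50 bases after the annotated start, 5′ to 3′, and were taken from RefSeq on GRCm38.p6, at chr11:67237562-67237861 for *Myh4*, chr11:67199852-67200151 for *Myh1* and chr11:67170777-67171076 for *Myh2*, all on the plus strand. Capitals mark matches to the MEF2 motif, to the CArG box bound by serum response factor and to the E-box CANNTG bound by MyoD and its relatives.
Myh4: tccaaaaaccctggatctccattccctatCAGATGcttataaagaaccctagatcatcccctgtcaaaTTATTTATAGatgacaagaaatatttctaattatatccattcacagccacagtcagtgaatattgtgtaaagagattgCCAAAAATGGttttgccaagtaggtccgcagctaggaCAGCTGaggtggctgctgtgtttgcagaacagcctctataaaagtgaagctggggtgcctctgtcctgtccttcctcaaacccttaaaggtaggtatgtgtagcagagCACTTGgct
Myh1: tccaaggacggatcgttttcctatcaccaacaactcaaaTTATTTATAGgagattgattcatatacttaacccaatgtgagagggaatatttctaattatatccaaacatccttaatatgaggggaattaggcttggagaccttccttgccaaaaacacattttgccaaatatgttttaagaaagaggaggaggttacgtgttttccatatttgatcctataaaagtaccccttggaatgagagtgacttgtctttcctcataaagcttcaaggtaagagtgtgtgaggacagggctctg
Myh2: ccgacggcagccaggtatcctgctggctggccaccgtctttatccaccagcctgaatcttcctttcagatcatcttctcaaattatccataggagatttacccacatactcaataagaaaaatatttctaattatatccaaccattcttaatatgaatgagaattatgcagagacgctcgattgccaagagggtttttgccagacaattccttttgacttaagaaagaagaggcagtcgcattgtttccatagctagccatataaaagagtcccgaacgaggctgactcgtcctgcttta

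The *Myh4* window held a MEF2 match at −182, a CArG match at −104 and the E-box CAGCTG at −67, with further CANNTG matches at −221 and 42, each counted from the start to the first base of the match. The *Myh1* window held a MEF2 match at −211 and no other match, and the *Myh2* window held none of the 4 motifs. Both strands were searched, and CAGCTG is itself 1 of the CANNTG letters. RefSeq windows were found for 32 of the 39 genes. CAGCTG was in 14 of these 32 windows, against 16.1% of 27025 windows of the same length. CANNTG was in 27 of them, against 72.1%. A MEF2 match was in 6 (*Xirp2*, *Ttn*, *Myh1*, *Myh4*, *Myh8* and *Pvalb*), against 3.26%, and a CArG match was in 3 (*Myh4*, *Ldb3* and *Myom1*), against 1.57%. These are matches of letters, and binding was not measured.

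*Myh1*, the IIx myosin, was at 8.82, 12.4, 18.4 and 2.81 CPM in Vehicle 1 to 4 and at 2.84, 0, 10.1 and 6.08 CPM in Bexarotene 1 to 4. *Myh4*, the IIb myosin, was at 1.59, 4.43, 0.546 and 0.268 CPM with vehicle and at 2.52, 0, 23.8 and 5.05 CPM with bexarotene. Per kilobase, the level of *Myh1* exceeded that of *Myh4* in each of the 4 vehicle-treated mice, and the level of *Myh4* exceeded that of *Myh1* in Bexarotene 1, 3 and 4. The order in Bexarotene 1 and 4 rested on the gene lengths used, 8931 bases for *Myh1* and 6057 for *Myh4*. In reads *Myh1* was ahead in these mice, with 18 against 16 and 129 against 107. *Myh4* had more reads than *Myh1* in Bexarotene 3 alone, with 701 against 298. *Myh2*, the IIa myosin, was at 1.09, 2.29, 4.91 and 0.335 CPM with vehicle and at 0, 0, 0.850 and 2.31 CPM with bexarotene. The groups overlapped for all 3 genes. In edgeR's quasi-likelihood test the log2 fold change of bexarotene over vehicle was 2.42 (SE 0.93, 95% interval 0.37 to 4.46, adjusted p = 0.976) for *Myh4*. It was −0.90 (SE 0.62) for *Myh1* and −0.96 (SE 0.85) for *Myh2*, with an adjusted p of 0.976 for both in edgeR. The two-sided exact permutation test of the levels over the 70 assignments of mice gave p = 0.4 for *Myh4* and p = 0.257 for each of *Myh1* and *Myh2*, where 0.0286 is the smallest p it allows. Without Bexarotene 3 the log2 fold change of *Myh4* was 0.88.

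The make-up of the fast myosins within a mouse does not depend on the scaling between libraries. Per kilobase, *Myh4* made up 18.7%, 30.0%, 3.18% and 10.9% of the 3 fast myosins in Vehicle 1 to 4, or 15.7% ± 11.4 (SD, n = 4). It made up 56.7% in Bexarotene 1, 75.8% in Bexarotene 3 and 45.3% in Bexarotene 4, or 59.3% ± 15.4 (SD, n = 3), and Bexarotene 2 had no read of the 3 genes. The highest vehicle share lay below the lowest bexarotene share. The number of reads behind each share differed widely. *Myh4* had 80 of 579, 89 of 384, 10 of 437 and 8 of 102 reads in Vehicle 1 to 4, and 16 of 34, 701 of 1024 and 107 of 285 reads in Bexarotene 1, 3 and 4. As shares of reads, the 95% Wilson interval for Bexarotene 1 was 31.5% to 63.3%, that for Bexarotene 3 was 65.5% to 71.2%, and that for Vehicle 2, the highest of its group, was 19.2% to 27.7%. These intervals cover counting error only. This separation was noticed among many shares after the data were seen and rests on 3 and 4 mice, a number with which an exact permutation test cannot go below 0.0571, and it was given no test. For single genes, all bexarotene levels lay above all vehicle levels in 1.41% of the 11616 genes tested and below them in 1.42%, and none of the 27 tested genes of the set was among them. These percentages are for levels in 4 against 4 mice and are no background for the *Myh4* share. None was computed for shares or for 3 against 4 mice.

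**Figure D2:**
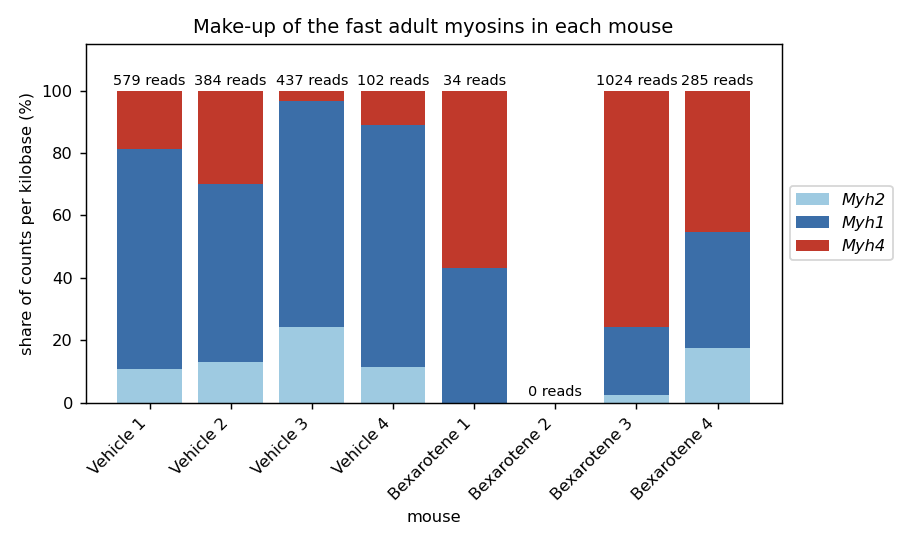
Share of *Myh2*, *Myh1* and *Myh4* in the counts per kilobase of the 3 fast adult myosins, as stacked bars for each mouse, with the number of reads above each bar. *Myh4* takes 3.18% to 30.0% with vehicle and 45.3% to 75.8% in the 3 bexarotene-treated mice that have reads; Bexarotene 2 has 0.

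*Myh1* was the counterpart, with 56.9% to 77.6% of the fast myosins in the vehicle-treated mice and 21.9% to 43.3% in the 3 bexarotene-treated mice. The share of *Myh2* overlapped between the groups, at 10.9% to 24.3% with vehicle and 0%, 2.30% and 17.6% in Bexarotene 1, 3 and 4. The 0 of 34 reads in Bexarotene 1 allows a share of up to 8.82% of reads by the limit of 3 counts. *Myh7*, the slow myosin that is also the main myosin of the human heart, had no read in any mouse. Beside 2845 reads of the fast myosins in all mice pooled, this allows *Myh7* a share of up to 0.105% of reads. By mouse the limit ran from 0.293% in Bexarotene 3 to 8.82% in Bexarotene 1. Bexarotene 2, without a read of the fast myosins, gave no limit. *Myh3* and *Myh8*, the embryonic and perinatal myosins, were near 0 throughout, with 0 to 0.0794 CPM and 0 to 0.442 CPM.

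The alpha-actinins anchor thin filaments in the Z-disc. *Actn3*, the form of fast fibers, was at 0.695, 1.54, 0.328 and 0.569 CPM with vehicle and at 0.158, 0, 4.42 and 1.60 CPM with bexarotene. *Actn2*, the form found in every fiber type, was at 1.07, 1.74, 3.88 and 0.871 CPM with vehicle and at 0.473, 0, 0.646 and 1.18 CPM with bexarotene. *Actn2* was thus highest in Vehicle 3, which was also the mouse with the most *Myh1* and *Myh2*. The log2 fold change in edgeR was −1.32 (SE 0.58, adjusted p = 0.976) for *Actn2* and 1.33 (SE 0.74, adjusted p = 0.976) for *Actn3*. The exact permutation p of the *Actn2* levels was 0.0857, and without Vehicle 3 its log2 fold change was −0.77. Per kilobase, *Actn3* made up 45.9%, 53.7%, 9.95% and 46.1% of both in Vehicle 1 to 4 and 30.4%, 90.0% and 64.0% in Bexarotene 1, 3 and 4. Bexarotene 1 had 4 reads of the pair, so that its interval ran from 4.56% to 69.9% of reads. The groups overlapped.

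Troponin is the calcium switch of the thin filament, and each of its parts has a fast and a slow gene. Troponin T ties the complex to tropomyosin. *Tnnt3*, its fast form (chr7:142052573-142069746), was at 2.08, 4.18, 3.33 and 1.21 CPM with vehicle and at 0.631, 0.422, 8.46 and 3.87 CPM with bexarotene. *Tnnt1*, its slow form (chr7:4507569-4519381), was at 5.14, 3.78, 6.77 and 5.86 CPM with vehicle and at 3.79, 5.49, 4.72 and 6.93 CPM with bexarotene. *Tnnt1* varied least of all the genes with a read in every mouse, its highest TMM-scaled level being 1.83 times its lowest, against 20.04 times for *Tnnt3* and 17.7 times for *Ttn*. On total counts alone, a ratio computed after seeing the data, it was 7.33 times for *Tnnt1*, again the smallest, and Bexarotene 2 was then the lowest mouse, at 1.53 reads per 1000000 against 2.06 to 11.2 in the others. The log2 fold change was 0.59 (SE 0.62, adjusted p = 0.980 in edgeR) for *Tnnt3* and −0.03 (SE 0.24, 95% interval −0.56 to 0.50, adjusted p = 0.9999 in edgeR) for *Tnnt1*, and −0.64 for *Tnnt1* on total counts alone. The direction of *Tnnt3* rested on 1 library, its log2 fold change being −0.31 without Bexarotene 3.

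Troponin I holds contraction off at rest. *Tnni2*, its fast form, which lies near *Tnnt3* on chromosome 7 (chr7:141995545-141998147), was at 0.616, 1.39, 1.37 and 0.368 CPM with vehicle and at 0.631, 0.845, 3.67 and 2.74 CPM with bexarotene. Bexarotene 3 and 4 were the highest mice. Its log2 fold change was 1.33 (SE 0.55, 95% interval 0.13 to 2.53, adjusted p = 0.976 in edgeR), and 0.88 without Bexarotene 3. *Tnni1*, the slow form (chr1:135707172-135738727), had only 47 reads in all, with 12, 7, 2 and 3 for Vehicle 1 to 4 and 6, 12, 2 and 3 for Bexarotene 1 to 4. After TMM scaling the 12 reads of Bexarotene 2 came to 5.07 CPM, against 0.0680 to 0.947 CPM in the other mice. Per 1000000 total counts they came to 1.41, against 0.0833 to 0.518 in the other mice. *Tnni1* did not pass the filter on low counts. In a fit without the filter its log2 fold change was 2.31 (SE 0.96, adjusted p = 0.832 in edgeR). With Bexarotene 2 left out it was 0.49, and with Bexarotene 1 left out as well it was −0.92.

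Troponin C binds the calcium. *Tnnc2*, its fast form, was at 0.814, 0.597, 0.874 and 0.134 CPM with vehicle and at 0.473, 0, 2.31 and 1.27 CPM with bexarotene, with a log2 fold change of 1.10 (SE 0.64, adjusted p = 0.976 in edgeR). *Tnnc1*, the form of slow fibers and heart, had 7 reads in all, 4 of them in Vehicle 4. Both values are uncertain, since *Ube2c* overlaps *Tnnc2* and *Nisch* overlaps *Tnnc1* on the other strand with more reads (1421 and 2680), and whether counting used strand is not given in the sources used here. Myosin-binding protein C cross-links the thick filament. *Mybpc2*, its fast form, was at 1.81, 1.79, 1.58 and 1.04 CPM with vehicle and at 1.26, 1.27, 5.23 and 2.08 CPM with bexarotene. *Mybpc1*, its slow form, was at 0.953, 1.34, 2.46 and 0.837 CPM with vehicle and at 0.631, 0.422, 0.918 and 2.08 CPM with bexarotene. Bexarotene 3 stood above the other mice for *Mybpc2* and among them for *Mybpc1*. The log2 fold change was 0.83 (SE 0.42) for *Mybpc2* and −0.21 (SE 0.48) for *Mybpc1*, with adjusted p of 0.976 and 0.9999 in edgeR.

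The fast share varied more within the bexarotene group than within the vehicle group in the troponin T, troponin I and myosin-binding protein C pairs, and less in the troponin C pair. Per kilobase, *Tnnt3* made up 40.2% ± 15.9 (SD, n = 4) of troponin T with vehicle and 36.2% ± 27.8 (SD, n = 4) with bexarotene. *Tnni2* made up 90.8% ± 4.42 (SD, n = 4) of *Tnni2* plus *Tnni1* with vehicle and 71.8% ± 33.7 (SD, n = 4) with bexarotene. *Mybpc2* made up 59.6% ± 10.8 (SD, n = 4) of *Mybpc2* plus *Mybpc1* with vehicle and 73.5% ± 13.6 (SD, n = 4) with bexarotene. Each of these differences was smaller than the spread between mice of the bexarotene group or close to it, and the groups overlapped in all 3 pairs. *Tnnc2* made up 88.7% ± 21.4 (SD, n = 4) of *Tnnc2* plus *Tnnc1* with vehicle and 99.3% ± 1.28 (SD, n = 3) with bexarotene, on 3 to 70 reads a mouse and none in Bexarotene 2. Bexarotene 3 had the highest fast share in the troponin T, troponin I, myosin-binding protein C and alpha-actinin pairs, but not in the troponin C pair, where it stood at 97.8% and 4 mice at 100%. Bexarotene 2 had the lowest share for troponin T and troponin I, on 14 reads each.

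**Figure D3:**
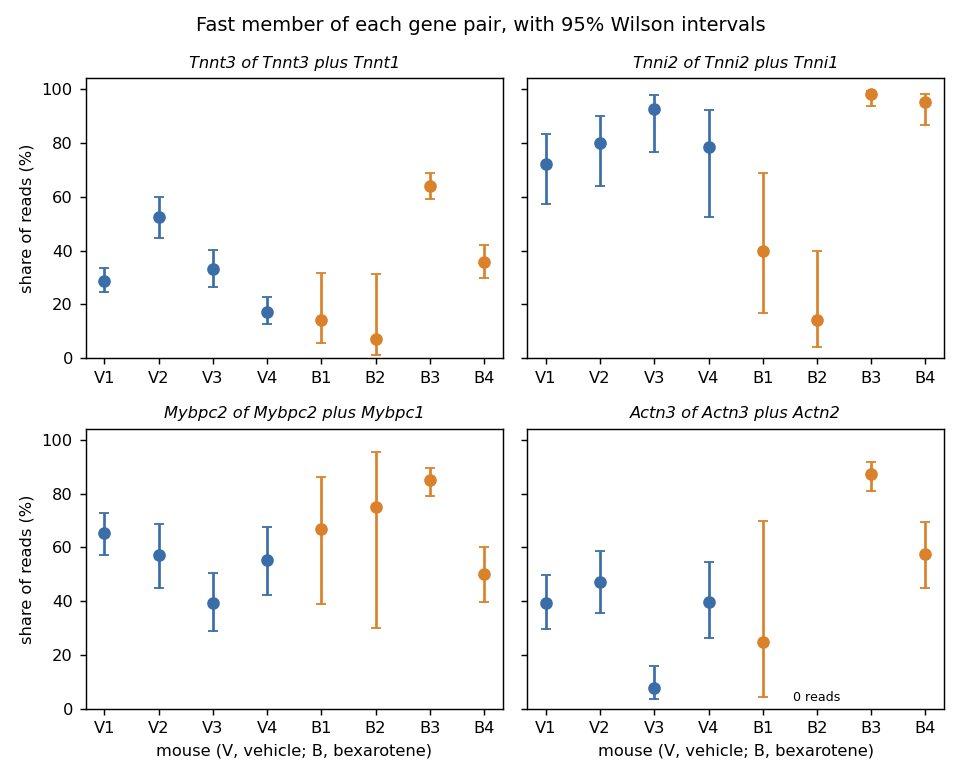
Share of reads from the fast gene in each of 4 gene pairs, for every mouse, with 95% Wilson intervals that cover counting error only; V is vehicle and B is bexarotene. Bexarotene 3 is the highest mouse in each panel, and the widest interval in each panel belongs to Bexarotene 1 or 2.

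Summed over all fast and slow genes per kilobase, the fast genes made up 75.3%, 86.0%, 76.2% and 53.3% of the level in Vehicle 1 to 4, or 72.7% ± 13.8 (SD, n = 4). They made up 69.8%, 28.5%, 92.9% and 79.3% in Bexarotene 1 to 4, or 67.6% ± 27.8 (SD, n = 4). The groups overlapped, and both extremes were again in the bexarotene group. The slow side of this share was mainly 1 gene. *Tnnt1* was 85.6% ± 3.63 (SD, n = 4) of the summed level of the slow genes with vehicle and 79.3% ± 11.8 (SD, n = 4) with bexarotene. After TMM scaling it stayed at 3.78 to 6.93 CPM, with 5.49 CPM in Bexarotene 2, which had no read of the fast myosins. Whether its reads came from slow fibers was not tested, so the share is not a measure of slow-fiber content. With *Tnnt1* left out, an alternative chosen after seeing the data, the fast share was 94.9% with vehicle and 84.8% with bexarotene. Without Bexarotene 1 and 2, the fast share of the bexarotene group was 86.1%.

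The other fast-fiber genes followed Bexarotene 3 as well. *Atp2a1*, the calcium pump SERCA1 that refills the sarcoplasmic reticulum, was at 5.42, 9.995, 8.35 and 2.18 CPM with vehicle and at 5.84, 0, 26.2 and 10.5 CPM with bexarotene. Its log2 fold change was 0.88 (SE 0.67, adjusted p = 0.976 in edgeR), and 0.02 without Bexarotene 3. *Rabep2* overlaps it on the other strand with 181 reads, against 1722 of *Atp2a1*. *Pvalb*, the cytosolic calcium buffer of fast fibers, was at 0.496, 0.448, 0.273 and 0 CPM with vehicle and at 0.631, 0, 1.87 and 0.141 CPM with bexarotene. *Myl1* and *Mylpf*, the light chains of fast myosin, ranged from 0 to 3.43 and from 0 to 1.60 CPM, and *Myoz1*, a Z-disc partner of calcineurin, from 0 to 0.612 CPM. The highest mouse for each of the 3 was Bexarotene 3.

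*Ttn* encodes titin, the elastic protein that spans the sarcomere from Z-disc to M-band. It was at 44.6, 90.3, 60.4 and 30.6 CPM in Vehicle 1 to 4 and at 33.3, 8.02, 142 and 61.7 CPM in Bexarotene 1 to 4. *Neb*, which encodes the thin-filament ruler nebulin, was at 8.20, 19.1, 14.4 and 8.07 CPM with vehicle and at 4.57, 0, 26.9 and 12.7 CPM with bexarotene. In both genes Bexarotene 3 and Vehicle 2 were the highest mice and Bexarotene 2 the lowest. The log2 fold change was 0.14 (SE 0.62, 95% interval −1.21 to 1.498, adjusted p = 0.9999 in edgeR) for *Ttn* and −0.01 (SE 0.65, 95% interval −1.43 to 1.40, adjusted p = 0.9999 in edgeR) for *Neb*. These intervals leave room for changes in either direction of more than 2-fold. Without Bexarotene 3 the log2 fold changes were −0.65 and −0.82.

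*Tpm1*, a tropomyosin also made by smooth muscle and fibroblasts, was at 9.33, 10.7, 7.15 and 7.77 CPM with vehicle and at 5.99, 5.49, 15.3 and 7.97 CPM with bexarotene. *Des*, the intermediate filament desmin that links Z-discs and is also made by smooth muscle, was at 5.90, 12.1, 6.44 and 9.88 CPM with vehicle and at 4.89, 2.96, 5.64 and 13.0 CPM with bexarotene. After TMM scaling these 2 genes varied least after *Tnnt1* among the genes with a read in every mouse, with a highest level of 2.79 and 4.40 times the lowest. On total counts alone these ratios were 16.1 and 22.2, and *Ryr1*, at 14.3, came next after *Tnnt1*. Their log2 fold changes were 0.07 (SE 0.29) for *Tpm1* and −0.26 (SE 0.38) for *Des*, with adjusted p of 0.9999 and 0.990 in edgeR. *Tpm2*, a tropomyosin of both fiber types, ranged from 1.57 to 7.11 CPM with vehicle and from 0 to 4.76 CPM with bexarotene.

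*Xirp2*, an actin-binding protein of the Z-disc region, differed in pattern from the fast genes. It was at 5.88, 5.42, 4.31 and 5.79 CPM with vehicle and at 0.631, 0, 3.57 and 4.72 CPM with bexarotene. The vehicle-treated mice lay close together, and Bexarotene 4 alone reached into their range. Its log2 fold change was −0.93 (SE 0.49, adjusted p = 0.976 in edgeR), the two-sided exact permutation p was 0.0571, and Bexarotene 1 and 2 are the libraries with the fewest muscle reads. *Nrap*, which anchors actin at the fiber ends, and *Ldb3* and *Tcap*, both of the Z-disc, overlapped between groups, as did the M-band genes *Myom1* and *Myom2*. All of them but *Ldb3* were at 0 in Bexarotene 2, and the highest level among them was 4.76 CPM, for *Nrap* in Bexarotene 3. *Myom1* is uncertain, since *Myl12a* overlaps it on the other strand with 1213 reads against its 131.

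Contraction begins when the voltage sensor *Cacna1s* opens *Ryr1*, the calcium release channel, and *Casq1* stores calcium beside it. *Ryr1* was at 3.16, 6.12, 4.31 and 3.52 CPM with vehicle and at 2.21, 4.22, 10.5 and 6.23 CPM with bexarotene, with Bexarotene 3 and 4 the highest mice. Its log2 fold change was 0.55 (SE 0.38, adjusted p = 0.976 in edgeR), and 0.07 without Bexarotene 3. *Casq1* was at 0.199, 0.547, 0.218 and 0.0335 CPM with vehicle and at 0, 0, 0.442 and 0.424 CPM with bexarotene, most of these values coming from few reads. *Cacna1s* ranged from 0.301 to 0.516 CPM with vehicle and from 0 to 1.05 CPM with bexarotene. Neither *Casq1* nor *Cacna1s* passed the filter on low counts.

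*Ckm*, the creatine kinase that restores ATP in muscle, was at 1.47, 3.08, 3.11 and 0.435 CPM with vehicle and at 1.42, 0.845, 9.72 and 2.22 CPM with bexarotene. *Pygm*, the phosphorylase that breaks down muscle glycogen, was at 0.794, 1.89, 0.710 and 0.301 CPM with vehicle and at 0.158, 0, 6.63 and 1.56 CPM with bexarotene. In both genes Bexarotene 3 stood far above the other 7 mice. Their log2 fold changes were 1.06 (SE 0.69) and 1.52 (SE 0.82), each with an adjusted p of 0.976 in edgeR, and −0.21 and −0.08 without Bexarotene 3. *Mb*, the oxygen-binding myoglobin of oxidative fibers, was at 0.119, 0.597, 1.04 and 0.0670 CPM with vehicle and at 0, 0, 0.544 and 0.0943 CPM with bexarotene, on few reads and with *Apol6* overlapping it on the other strand. *Eno3*, the muscle enolase, ranged from 1.58 to 2.54 CPM with vehicle and from 0.422 to 2.07 CPM with bexarotene.

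None of the 39 genes passed the adjusted threshold of 0.05 in edgeR, and neither did any other gene, so that 0% of the 11616 genes tested were called (smallest adjusted p = 0.976). DESeq2 and limma-voom also called 0 genes, with 451 and 399 genes at an unadjusted p under 0.05. Of the 39 genes, 27 passed the filter on low counts and were tested, 11 were read from a fit without it, and *Myh7* had no count. At an unadjusted p under 0.05 in edgeR, *Myh4* and *Tnni2* were higher with bexarotene, 2 of 27 against 2.38% of all genes tested. *Actn2* was lower, 1 of 27 against 1.3%. Over all genes 428 had such a p, 277 of them higher and 151 lower. Of the 27 genes, 17 had a log2 fold change above 0 and 10 below it, with a median of 0.42, against a median of −0.03 over all genes tested, of which 5399 lay above 0 and 6217 below. This median rested on Bexarotene 3: without it the median was −0.21, and 10 of the 27 genes lay above 0. Without Bexarotene 1 and 2 it was 0.84, with 26 of 32 genes above 0.

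By role, 9 of the 11 tested fast-fiber genes had a log2 fold change above 0, *Myh1* and *Myh2* being the 2 below it. The median of the fast-fiber genes was 0.83, in a range from −0.96 to 2.42, with 0.10 when Bexarotene 3 was left out and 1.39 when Bexarotene 1 and 2 were. Both tested slow-fiber genes, *Tnnt1* and *Mybpc1*, lay slightly below 0, with a median of −0.12. That sign was not stable, since the median was 0.10 in limma-voom with sample weights and 0.12 without Bexarotene 1 and 2. Of the 10 tested genes that build the sarcomere in both fiber types, 5 lay above 0 and 5 below, with a median of 0.03. Of the 3 tested energy genes, *Ckm* and *Pygm* lay above 0 and *Eno3* below. The fast and slow lists were not tested against each other.

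**Figure D4:**
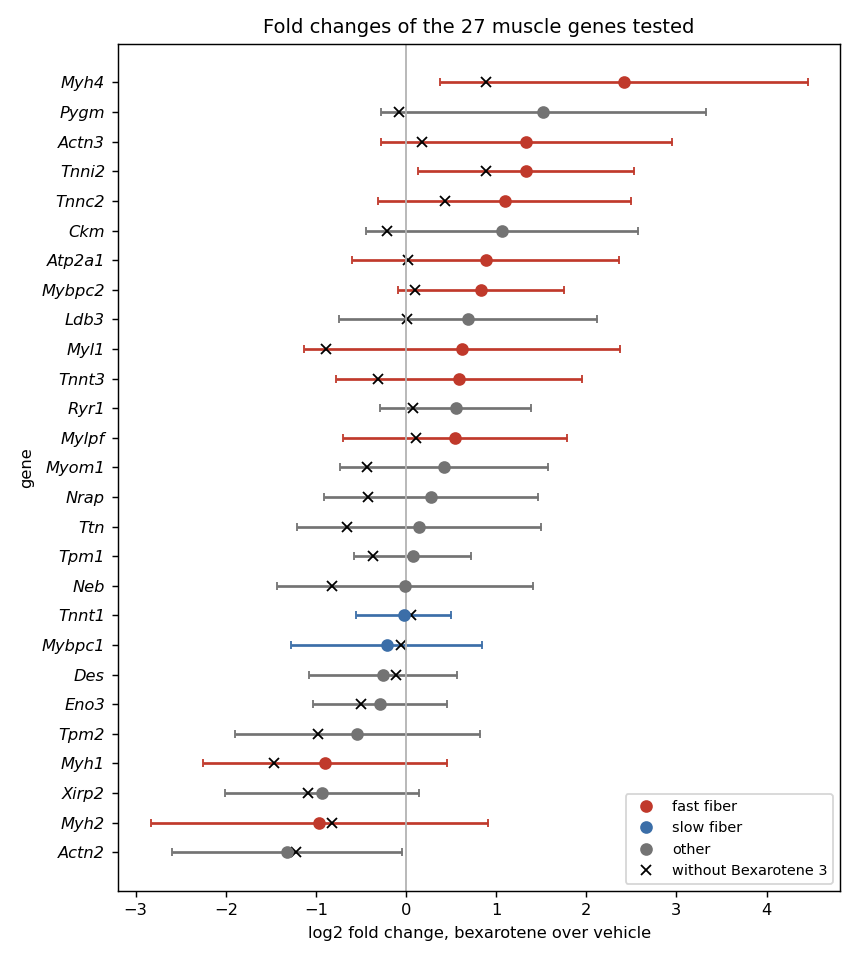
Log2 fold change of bexarotene over vehicle for the 27 genes tested, with 95% intervals from edgeR, ordered by size; red marks fast-fiber genes, blue slow-fiber genes, and crosses give the value without Bexarotene 3. Most intervals include 0, the fast genes other than *Myh1* and *Myh2* lie to the right, and the crosses of most of these lie closer to 0.

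Wider lists of muscle genes gave no call either. Among 29 further sarcomere genes, 10 were tested, with 8 above 0, 2 below and a median log2 fold change of 0.24. *Mylk4*, a myosin light chain kinase, was the most abundant of them per kilobase. It was at 9.23 to 16.3 CPM with vehicle and 11.7 to 33.4 CPM with bexarotene, highest in Bexarotene 2 after TMM scaling. On total counts alone Bexarotene 2 (TMM factor 0.278) was below Vehicle 1, which was at 13.4 CPM with a factor of 2.18. *Hspb6*, a small heat shock protein of muscle, ranged from 0.703 to 3.13 CPM with vehicle and from 0.422 to 2.18 CPM with bexarotene. *Myot*, the Z-disc protein myotilin, was highest in Bexarotene 3 at 1.87 CPM and at most 0.448 CPM elsewhere, and *Trim55*, a ubiquitin ligase of the sarcomere, had 2 reads. Of 16 further genes of excitation and calcium coupling, 3 were tested, with 1 above 0 and 2 below. *Scn4a*, the sodium channel of the muscle membrane, was at 0.119, 0.646, 0.0546 and 0.167 CPM with vehicle and at 0.631, 0, 1.53 and 0.707 CPM with bexarotene, too few reads for the filter (log2 fold change 1.84, SE 0.70, adjusted p = 0.832 in edgeR without the filter). *Bin1* and *Cacna2d1* were the most abundant of this list, both also made outside muscle, and *Jsrp1* had 13 reads.

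Of 14 further energy genes, 5 were tested, and all 5 had a log2 fold change above 0, with a median of 0.19. *Slc25a4*, the ATP carrier of mitochondria, and *Cox6a2*, a muscle subunit of cytochrome oxidase, both had 0.04, while *Ampd1* and *Fabp3* had 19 and 6 reads. Of 7 further slow-fiber genes none passed the filter. *Myl2* and *Myl3*, the slow myosin light chains, had no read in any mouse, and *Ankrd2*, *Csrp3* and *Casq2* had 34, 39 and 8. The regulators of muscle formation summed to 0.993 to 1.77 CPM with vehicle and 0 to 1.89 CPM with bexarotene, *Myf5* being at 0 throughout and *Myod1*, *Myf6* and *Myog* having 3, 15 and 21 reads.

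Markers of other cell types differed widely between the same libraries, and their part in the muscle values was not tested. Of 7 heart markers, 5 had no count in any mouse (*Nppa*, *Myl7*, *Myh6*, *Tnni3* and *Mybpc3*). Smooth muscle markers summed to 17.1 to 39.8 CPM with vehicle and 22.4 to 50.8 CPM with bexarotene, highest in Bexarotene 3, and all 9 had a count. After TMM scaling, markers of T lineage, which include the EL4 cells, summed to 130 to 183 CPM with vehicle and 138 to 163 CPM with bexarotene. That narrow range rested on the TMM factors. On total counts alone these markers differed more, with 326 reads in 8518428 in Bexarotene 2 and 6784 in 23150622 in Vehicle 1. Those of adipocytes summed to 1.14 to 12.7 CPM with vehicle and 2.53 to 10.4 CPM with bexarotene. Keratinocyte markers ranged from 1.44 CPM in Vehicle 4, where only 4 of the 9 had a count, to 1191 CPM in Vehicle 2, and from 42.2 to 197 CPM with bexarotene. The label of skin therefore has little support from epidermal genes in Vehicle 4. After TMM scaling, fibroblast markers summed to 263 to 786 CPM with vehicle and 379 to 1684 CPM with bexarotene, highest in Bexarotene 2. That rank rested on the TMM factors. Bexarotene 2 had 3987 reads of these markers in 8518428 total counts, and Vehicle 1, with 21171 in 23150622, was higher on total counts alone.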

How the data were processed

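The deposited values were raw counts of reads per gene, with gene lengths and GRCm39 coordinates, and every sample column could be assigned (0 were not). The labels name a directional kit after ribosomal RNA depletion. Before deposit, the authors had trimmed the reads (Trimmomatic 0.30), examined their quality (FastQC 0.11.9), aligned them (HISAT2, version 2.0.1 in the submitters' processing notes and another in the methods), counted them (HTSeq 0.6.1) and run DESeq2. Whether counting used strand is not given in the sources used here.

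CPM and CPM per kilobase were computed here from those counts and lengths. Low genes were removed with filterByExpr (count of at least 10, total of at least 15), and the rest were scaled by TMM and tested with the quasi-likelihood test of edgeR 4.0.16 in R 4.3.3, without covariates and with Benjamini-Hochberg adjustment over all genes tested. limma 3.58.1 and DESeq2 1.42.0 served as alternatives, with other scalings and filters, a replicate block and each mouse left out. The test was also run on counts simulated with means and edgeR dispersions taken from these libraries. Such counts obey the model of the test, so they cannot show that it suits these libraries. Single levels were compared by exact permutation of log2(CPM + 1). No library was a duplicate.

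The 39 genes, the lists and the tests were chosen with earlier results of these data known. Values in every mouse were given for the isoform pairs, the adult myosins, *Ttn*, *Neb*, *Ckm*, *Des*, *Tpm1*, *Ryr1*, *Atp2a1*, *Casq1*, *Pvalb*, *Mb* and the 3 genes with the smallest unadjusted p. *Actn3*, *Pygm*, *Xirp2* and *Scn4a* were added after their values were seen. Of each further muscle list, the 2 genes of smallest p and the 2 highest per kilobase were named. Marker lists of other cell types were given as summed levels only. P-values set the difference between the groups against the spread between these mice.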

Additional observations from a re-analysis of the deposited data

Results flagged for a closer look

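The level of *Ckm*, the muscle creatine kinase, was 9.72 CPM in Bexarotene 3, against 0.845 to 2.22 CPM in the other 3 bexarotene-treated mice. Its gap to the nearest of them, 0.845 of the whole range of the group, exceeded the 95% limit of Dixon's test for 4 samples. It was the only one of 56 groups of 4 mice so examined that did, and chance alone passes this limit in about 1 in 20 groups.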

How the results depend on the processing

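No gene was called in edgeR, DESeq2 or limma-voom under the 16 alternatives, whether among the 39 genes or among all. At an unadjusted p under 0.05, 3 of the 39 genes passed in the fit reported, 3 with RLE scaling, DESeq2 or limma-voom, 2 with total counts as the only scaling, 7 without the filter, 0 of 4 tested genes with at least 10 counts in every mouse, 10 without Bexarotene 1 and 2, and 0 (without Bexarotene 3) to 6 (without Bexarotene 1) with 1 mouse left out. Same-numbered mice did not deviate together (r = −0.08, −0.09, −0.07 and 0.00). This gave no sign of pairing by number, but it cannot show that same-numbered mice shared no batch. With the replicate block 0 of the 39 genes and 424 of all genes had such a p.

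The median of the fast-fiber genes ranged from 0.10 (without Bexarotene 3) to 1.02 (without Bexarotene 1) with 1 mouse left out. That of the slow-fiber genes ranged from −0.54 (without Bexarotene 4) to 0.12 (without Vehicle 3), and was −0.61 with total counts as the only scaling, 0.10 in limma-voom and 0.12 without Bexarotene 1 and 2. Total counts as the only scaling moved the median of all genes from −0.03 to −0.66, and that of the fast-fiber genes to 0.53. With at least 10 counts in every mouse no fast-fiber gene was left to give a median.

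With 1 mouse left out, the fast share ranged from 68.3% to 79.2% with vehicle and from 59.2% to 80.7% with bexarotene, and without *Tnnt1* it was 94.9% with vehicle. The *Myh4* share of the fast myosins ranged from 10.9% to 19.9% and from 51.0% to 66.3%, and the *Actn3* share from 34.0% to 48.6% and from 47.2% to 77.0%. With counts not divided by length, the mean *Myh4* share was 11.8% with vehicle and 51.0% with bexarotene.

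Of 21 single genes, 11 kept their sign under all alternatives, and 29 of 318 values turned it. In limma-voom *Tnnt1* was 0.042, *Mybpc1* 0.16, *Ttn* −0.13, *Neb* 0.074 and *Des* 0.13. Without Bexarotene 1 and 2 *Tnnt1* was 0.12, *Tnni1* −0.92, *Mybpc1* 0.13, *Neb* 0.69 and *Des* 0.14. With the replicate block *Ttn* was −0.17 and *Tpm1* −0.034, and *Tpm1* was −0.38 with total counts. With 1 mouse left out the sign turned within the ranges of *Ckm* (−0.21 to 1.37), *Mybpc1* (−0.86 to 0.15), *Neb* (−0.82 to 0.29), *Pygm* (−0.076 to 2.12), *Tnnt1* (−0.21 to 0.093), *Tnnt3* (−0.31 to 0.90), *Tpm1* (−0.36 to 0.21) and *Ttn* (−0.65 to 0.49). *Myh4* ranged from 0.88 to 3.38. For *Ckm*, *Pygm*, *Tnnt3*, *Tpm1* and *Ttn* the end of the range with the turned sign came without Bexarotene 3, which had 9942 reads of the 39 genes. For *Mybpc1* and *Tnnt1* it came without Vehicle 3, and for *Neb* without Bexarotene 2. Counting error is largest in Bexarotene 1 and 2, where 497 and 88 reads stand for the 39 genes. The cause of the turned signs was not tested.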

Other observations

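Over the 8 libraries, the genes outside the set whose log2(CPM + 1) followed the mean of the 39 genes most closely were *Cd2* (Pearson r = 0.990), *Klhl41* (0.980), *Gpd1* (0.977), *Fstl3* (0.968), *Zfp423* (0.967), *Asph* (0.960), *Git2* (0.959) and *Sh2b3* (0.957). Of 11198 genes, 60 had an r above 0.9. *Klhl41* is a sarcomere protein and *Asph* encodes junctional proteins of the sarcoplasmic reticulum, whereas *Cd2* is a surface receptor of T cells. *Cd2* was at 0.854, 1.39, 1.20 and 0.569 CPM in Vehicle 1 to 4 and at 0.473, 0, 2.28 and 1.04 CPM in Bexarotene 1 to 4. These points share their libraries, whose total counts ran from 8518428 in Bexarotene 2 to 24020342 in Vehicle 3 and whose TMM factors ran from 0.278 in Bexarotene 2 to 2.18 in Vehicle 1.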
